A study of Oryza sativa with 8 samples.

Results

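Brassinosteroids are plant steroid hormones that promote cell elongation and, in rice, set leaf angle, plant height and grain size. The hormone is bound at the cell surface by the receptor kinase BRI1, which acts with the co-receptor kinase BAK1. Binding leads to the inactivation of GSK2, a kinase that otherwise phosphorylates the transcription factor BZR1 and marks it for retention and degradation. BZR1 then represses genes of brassinosteroid synthesis, so that a strong signal lowers further hormone production. DLT is a GRAS-family regulator of tillering and leaf angle, and in rice it is a substrate of GSK2 and a gene whose promoter BZR1 binds.

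The transcripts of 5 genes of this chain, of 32166 genes in the deposited table, were followed across 3 rice genotypes. They were picked by locus identifier for their place in the pathway, with earlier results of these data known, and are the receptor gene BRI1 (Os01g0718300, chromosome 1), the co-receptor gene BAK1 (Os08g0174700, chromosome 8), the transcription factor genes BZR1 (Os07g0580500, chromosome 7) and BZR2 (Os01g0203000, chromosome 1), and DLT (Os06g0127800, chromosome 6). All 5 passed the minimum for testing, which was a value of 10 in at least 2 libraries.

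RNA came from flag leaves of the cultivar ZH11. There were 3 libraries of the genotype labelled GSK2-RNAi oswrky53, whose label joins an RNA interference construct against GSK2 with a mutation of WRKY53, 3 libraries of the genotype labelled GSK2-RNAi, whose label gives the construct alone, and 2 libraries of the wild type. WRKY53 is a transcription factor of brassinosteroid and defence responses. The labels give neither the promoter of the construct, the number of independent lines, the kind of WRKY53 mutation nor whether leaves were pooled, so p-values measure the spread between these libraries only. Harvest was at heading by the sample labels and at booting by the series text. All sample titles carry the tag CK, which is not interpreted here, and the wild type libraries are numbered 1 and 3.

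Library totals ranged between 20.87 and 28.03 in units of 1e6 normalized counts, and approximate depths between 19.86 and 38.61 in units of 1e6 reads. The totals were lowest in samples labelled GSK2-RNAi, at 20.87 to 21.71. The GSK2 transcript went against the genotype label, averaging 185 ± 32.2 normalized counts in samples labelled GSK2-RNAi oswrky53, 785 ± 39.99 in samples labelled GSK2-RNAi and 102 ± 4.25 in the wild type (SD, n = 3, 3 and 2). Genotypes are therefore called by their labels, and no change below stands for the effect of less GSK2 transcript. Whether reads of the construct itself were counted as GSK2, and whether any labels were exchanged, was not tested. As a check of tissue, the summed level of 6 leaf mesophyll genes was 1017200 to 1372300 normalized counts in samples labelled GSK2-RNAi oswrky53, 540410 to 674410 in samples labelled GSK2-RNAi and 1203900 to 1347600 in the wild type. Of these genes CAB2R overlapped the wild type, at 96002 to 128580 in samples labelled GSK2-RNAi against 87346 to 271400. The others all lay below the wild type in samples labelled GSK2-RNAi. The summed level of 4 floral organ genes was 369 to 2343 in samples labelled GSK2-RNAi oswrky53, 279 to 477 in samples labelled GSK2-RNAi and 776 to 806 in the wild type, and its members did not move together. MADS15 was at 189 to 2044 in samples labelled GSK2-RNAi oswrky53, 181 to 240 in samples labelled GSK2-RNAi and 603 to 725 in the wild type, while MADS3 was at 2.09 to 3.30 in samples labelled GSK2-RNAi oswrky53, 16.2 to 51.9 in samples labelled GSK2-RNAi and 5.69 to 8.68 in the wild type. MADS6 was at 0 to 3.30 in samples labelled GSK2-RNAi oswrky53, 0.901 to 8.48 in samples labelled GSK2-RNAi and 0 in both wild type libraries. The summed level of the dividing-cell genes PCNA and CDKB2-1 was 287 to 363 in samples labelled GSK2-RNAi oswrky53, 249 to 264 in samples labelled GSK2-RNAi and 180 to 301 in the wild type, and the anther gene TDR was at 46.9 to 89.9 in samples labelled GSK2-RNAi oswrky53, 24.3 to 27.8 in samples labelled GSK2-RNAi and 69.1 to 81.4 in the wild type. In bulk leaf RNA, fewer cells of a type and less RNA per cell cannot be told apart.

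**Figure D1:**
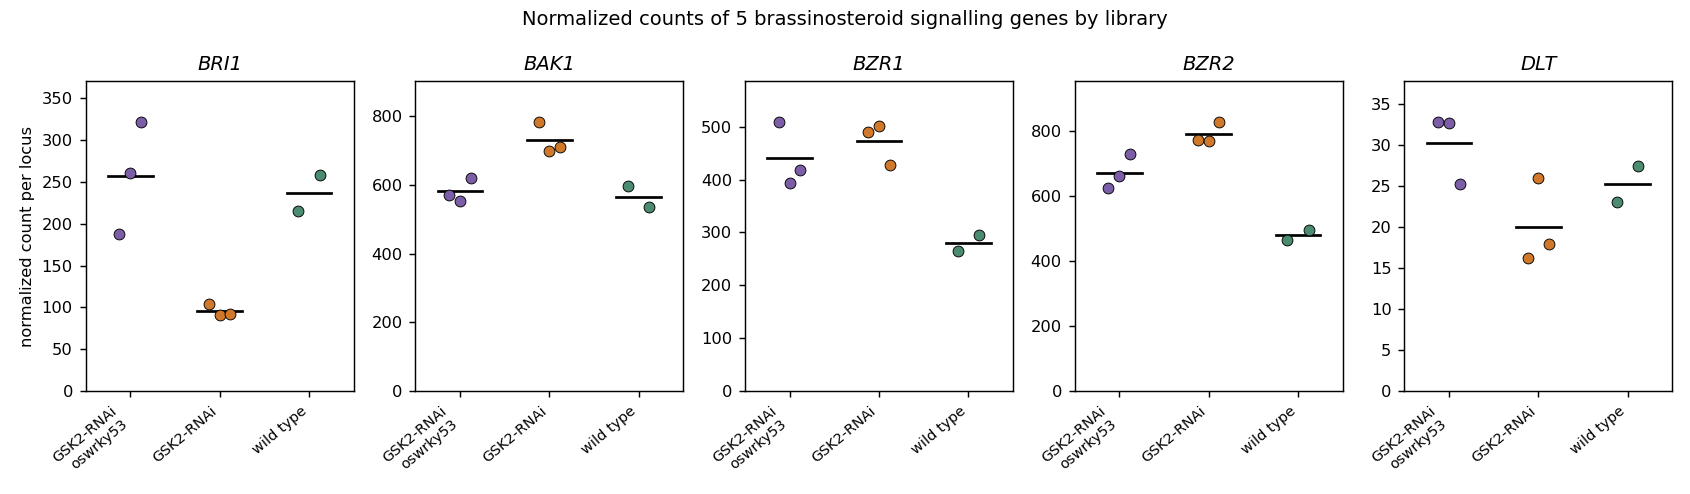
Normalized count per locus (vertical axis, starting at 0) of the 5 genes in each library, by genotype label. Points are libraries and bars are group means (n = 3, 3 and 2). BRI1 lies between 90.5 and 104 in samples labelled GSK2-RNAi, under the other 5 libraries, while BZR1 and BZR2 lie lowest in the wild type.

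In samples labelled GSK2-RNAi, compared with the wild type, the receptor gene fell and both BZR genes rose. BRI1 was 2.48-fold lower, BZR1 was 1.69-fold and BZR2 1.65-fold higher, and the changes of BAK1 and DLT did not pass the test. The comparison asked which transcripts go with the GSK2-RNAi label. Of the 5 genes, 2 rose and 1 fell, where 24.8% of the 25325 genes tested changed (13.3% upward and 11.6% downward), by limma with a Benjamini-Hochberg adjusted p under 0.05. The groups did not overlap for 4 of the 5, against 55.3% of all genes.

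BRI1, the hormone receptor, stood at 104, 90.5 and 92.0 normalized counts in samples labelled GSK2-RNAi, against 215 and 258 in the wild type. The 3 samples labelled GSK2-RNAi lay close together and all under the wild type. The log2 fold change was -1.30 ± 0.24 (SE, limma adjusted p = 0.00644), and 84.1% of the genes tested had a smaller change in size. The call held in each of 17 alternative analyses, with log2 fold changes from -1.44 to -0.91 and adjusted p from 0.003 to 0.0407. The summed mesophyll genes were lowest in the same 3 libraries, and their part in the BRI1 difference was not tested.

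BAK1, the co-receptor, was at 784, 698 and 711 normalized counts in samples labelled GSK2-RNAi, against 596 and 536 in the wild type. All 3 samples labelled GSK2-RNAi were above both of the wild type. The log2 fold change was 0.37 ± 0.12 (SE), with a 95% interval from 0.09 to 0.65, and it missed the threshold (limma adjusted p = 0.059). With libraries scaled to equal totals it was 0.75 and passed (adjusted p = 0.00314).

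BZR1, the transcription factor that acts at the end of the chain, was at 490, 501 and 427 normalized counts in samples labelled GSK2-RNAi, against 265 and 295 in the wild type. The groups did not overlap, and the log2 fold change was 0.75 ± 0.16 (SE, limma adjusted p = 0.0105). Leaving out wild type replicate 1 ended the call (0.68, adjusted p = 0.0628). Its paralogue BZR2 was at 772, 770 and 830 in samples labelled GSK2-RNAi, against 464 and 496 in the wild type. Again every sample labelled GSK2-RNAi was above the wild type, with a log2 fold change of 0.72 ± 0.12 (SE, limma adjusted p = 0.00449). The BZR2 call held in each of 17 alternative analyses (adjusted p 0.000674 to 0.0297).

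DLT, the GRAS regulator, was the least abundant, at 16.2, 25.9 and 17.9 normalized counts in samples labelled GSK2-RNAi and 23.0 and 27.4 in the wild type. The groups overlapped. The log2 difference was -0.34 with a 95% interval from -1.14 to 0.45 (limma adjusted p = 0.513), so that neither a 2-fold fall nor no difference lay outside the interval, and its sign turned with libraries scaled to equal totals (0.03). At this level 1 read was worth about 0.726 to 1.10 normalized counts, and so each DLT value rests on few reads.

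**Figure D2:**
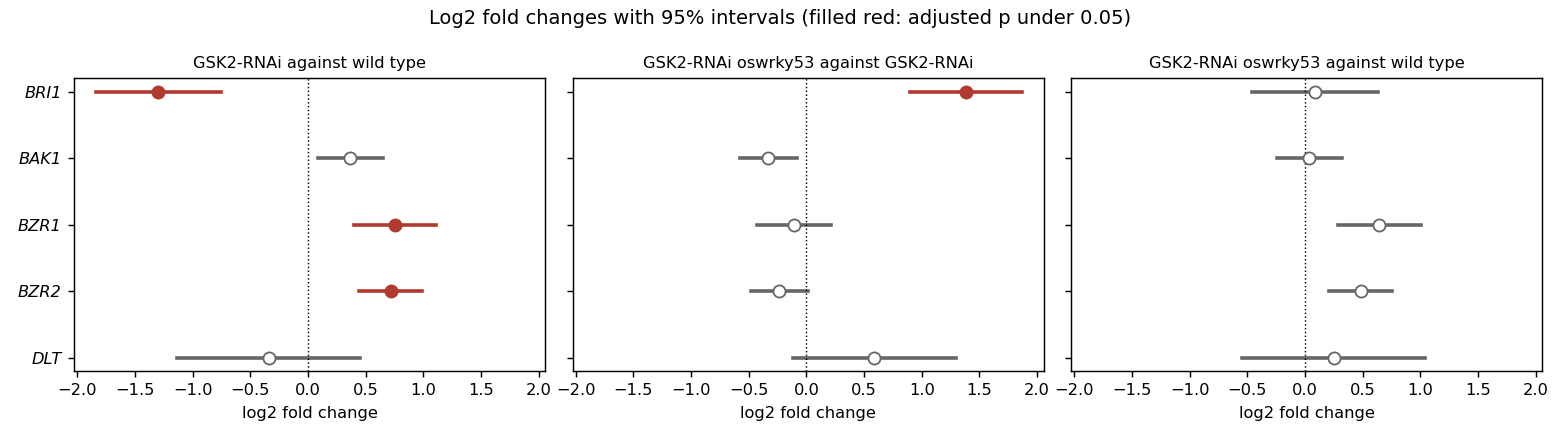
Log2 fold change (horizontal axis) of the 5 genes in the 3 comparisons, with 95% intervals from limma. Filled red points passed an adjusted p of 0.05. BRI1 is at -1.30 in samples labelled GSK2-RNAi relative to the wild type and at 1.38 in samples labelled GSK2-RNAi oswrky53 relative to samples labelled GSK2-RNAi, while the BZR genes pass in the first comparison and in neither of the others.

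Between samples labelled GSK2-RNAi oswrky53 and samples labelled GSK2-RNAi, BRI1 rose 2.69-fold and the other 4 genes did not pass the test. By its labels the comparison is about the WRKY53 mutation, but GSK2 transcript was also 4.24-fold lower in samples labelled GSK2-RNAi oswrky53 than in samples labelled GSK2-RNAi (limma adjusted p = 0.00067), and the mutation and the GSK2 level cannot be told apart. The call covered 1 gene of 5, where 16.5% of all genes changed (8.78% upward and 7.7% downward). The groups did not overlap for 3 of the 5, against 39.2% of all genes. The WRKY53 transcript itself (Os05g0343400, chromosome 5), whose name was taken from the genotype label, averaged 8423 ± 2892 normalized counts in samples labelled GSK2-RNAi oswrky53 and 7933 ± 587 in samples labelled GSK2-RNAi (SD, n = 3 each). In the wild type WRKY53 averaged 3600 ± 554 (SD, n = 2). Samples labelled GSK2-RNAi were 2.20-fold above that level (limma adjusted p = 0.0152). Samples labelled GSK2-RNAi oswrky53 were 2.34-fold above it, which did not pass (limma adjusted p = 0.133).

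BRI1 was at 187, 260 and 322 normalized counts in samples labelled GSK2-RNAi oswrky53, against 104, 90.5 and 92.0 in samples labelled GSK2-RNAi. All 3 were above, with a wider spread (SD 67.2) than in samples labelled GSK2-RNAi (SD 7.29). The log2 fold change was 1.38 ± 0.21 (SE, limma adjusted p = 0.00607), larger in size than that of 90.7% of the genes tested. Over 17 alternative analyses it ranged from 1.07 to 1.59 with adjusted p from 0.00482 to 0.0347. Samples labelled GSK2-RNAi take part in both this comparison and the one with the wild type, so the 2 BRI1 changes are not independent. The summed mesophyll genes were also higher here, at 1017200 to 1372300 in samples labelled GSK2-RNAi oswrky53 against 540410 to 674410. Their part in this BRI1 difference was not tested.

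The co-receptor gene BAK1 was at 571, 552 and 621 normalized counts in samples labelled GSK2-RNAi oswrky53, against 784, 698 and 711 in samples labelled GSK2-RNAi. The groups did not overlap, but the log2 difference of -0.33, with a 95% interval from -0.58 to -0.08, missed the threshold (limma adjusted p = 0.075). It was -0.64 and passed (adjusted p = 0.00617) once totals were made equal. BZR2 was at 624, 663 and 730 in samples labelled GSK2-RNAi oswrky53, against 772, 770 and 830 in samples labelled GSK2-RNAi. Its log2 difference was -0.24 with an interval from -0.48 to 0.01 (limma adjusted p = 0.17), and it too passed with equal totals (-0.55, adjusted p = 0.0102).

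BZR1 was at 510, 394 and 417 normalized counts in samples labelled GSK2-RNAi oswrky53, against 490, 501 and 427 in samples labelled GSK2-RNAi. These groups overlapped, and the log2 difference of -0.11 had an interval from -0.43 to 0.21 (limma adjusted p = 0.64). DLT was at 32.8, 32.6 and 25.3 in samples labelled GSK2-RNAi oswrky53, against 16.2, 25.9 and 17.9 in samples labelled GSK2-RNAi. The lowest of the first group lay just under the highest of the second, and the log2 difference of 0.59, from -0.12 to 1.30, did not pass (limma adjusted p = 0.228).

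Set against the wild type, none of the 5 genes passed in samples labelled GSK2-RNAi oswrky53 (limma, 0 of 5; 2 of 5 at an unadjusted p under 0.05, BZR1 and BZR2). In this comparison 0.336% of all genes changed at an adjusted p under 0.05 (0.308% upward and 0.0276% downward). The share of all genes at the unadjusted threshold was not counted, so the 2 of 5 has no background beside it. BRI1, at 187, 260 and 322 normalized counts, took in the wild type range of 215 to 258, with a log2 difference of 0.09 and an interval from -0.46 to 0.63 (limma adjusted p = 0.91). BAK1 differed by 0.04, with an interval from -0.24 to 0.32.

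Both BZR genes stayed above the wild type range in all 3 samples labelled GSK2-RNAi oswrky53, and for 2 of the 5 genes the groups did not overlap, against 27.3% of all genes. BZR1 averaged 440 ± 61.1 normalized counts in those libraries and 280 ± 21.0 in the wild type (SD, n = 3 and 2), a log2 difference of 0.65 with an interval from 0.29 to 1.00 (limma adjusted p = 0.161). BZR2 averaged 672 ± 53.8 in samples labelled GSK2-RNAi oswrky53 and 480 ± 22.8 in the wild type, a log2 difference of 0.48 with an interval from 0.21 to 0.76 (adjusted p = 0.169). DLT differed by 0.25, with an interval from -0.55 to 1.04.

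In order of level, BRI1 was lowest in samples labelled GSK2-RNAi, and the other 2 genotypes did not differ beyond their spread. BZR1 and BZR2 were lowest in the wild type. For BZR1 samples labelled GSK2-RNAi oswrky53 and samples labelled GSK2-RNAi overlapped, and for BZR2 samples labelled GSK2-RNAi were highest without a call against samples labelled GSK2-RNAi oswrky53. BAK1 was highest in samples labelled GSK2-RNAi, with no call. DLT averaged most in samples labelled GSK2-RNAi oswrky53 and least in samples labelled GSK2-RNAi, and each pair of genotypes overlapped.

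The table lists 3 transcripts for BRI1 and 1 for each of the other 4 genes, so only BRI1 could vary in transcript make-up. Its most abundant transcript, Os01t0718300-01, was at 96.2, 155 and 228 normalized counts in samples labelled GSK2-RNAi oswrky53, at 69.2, 63.4 and 52.7 in samples labelled GSK2-RNAi, and at 148 and 162 in the wild type. Tested alone among all transcripts, it differed by -1.32 on the log2 scale in samples labelled GSK2-RNAi relative to the wild type (limma adjusted p = 0.0323). It differed in samples labelled GSK2-RNAi oswrky53 relative to samples labelled GSK2-RNAi by 1.28 (adjusted p = 0.0347). Both BRI1 calls were thus made with this transcript alone.

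Transcript Os01t0718300-03 was at 50.7, 35.1 and 90.8 normalized counts in samples labelled GSK2-RNAi oswrky53, at 34.6, 27.1 and 39.3 in samples labelled GSK2-RNAi, and at 66.7 and 90.5 in the wild type. Transcript Os01t0718300-02 was uneven between libraries of 1 genotype, at 40.5, 69.6 and 3.16 in samples labelled GSK2-RNAi oswrky53, listed at 0 in all 3 labelled GSK2-RNAi, and at 0 and 5.67 in the wild type. It made up 21.6%, 26.7% and 0.983% of the locus in samples labelled GSK2-RNAi oswrky53. Reads shared by transcripts of 1 locus are divided by estimation, so a value of 0 can be a matter of that division, which was not tested.

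**Figure D3:**
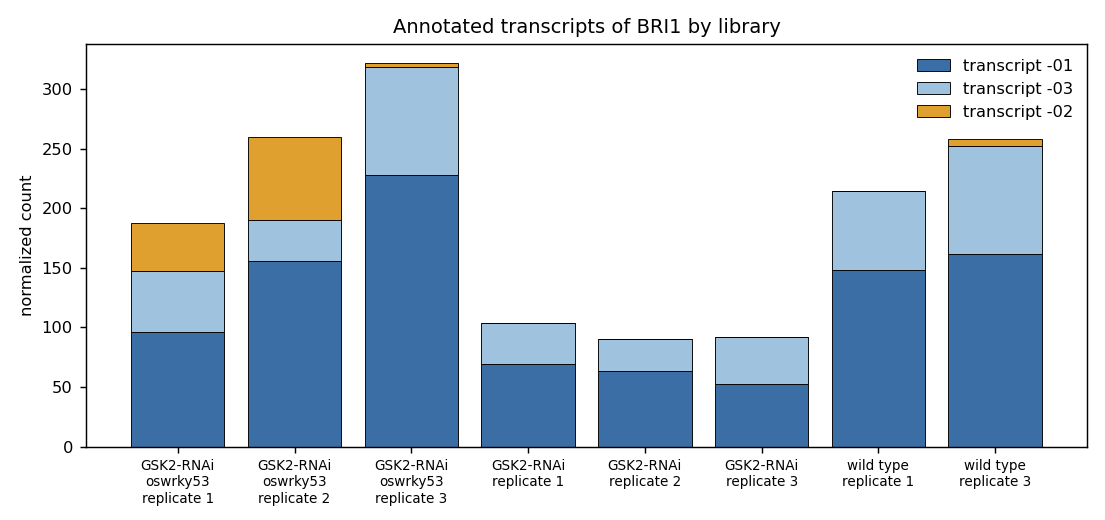
Normalized counts (vertical axis, starting at 0) of the 3 annotated BRI1 transcripts, stacked for each library. Transcript -01 is the largest part in every library, and transcript -02 is above 5.67 only in replicates 1 and 2 of samples labelled GSK2-RNAi oswrky53.

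A ratio of 2 genes within a library does not change when all genes of that library are scaled by a common factor. It can change under other steps, such as quantile normalization. The ratio of BRI1 to BAK1, receptor to co-receptor, was 0.328, 0.471 and 0.519 in samples labelled GSK2-RNAi oswrky53, 0.132, 0.130 and 0.129 in samples labelled GSK2-RNAi, and 0.360 and 0.481 in the wild type. Samples labelled GSK2-RNAi stood under all others by this measure. The ratio of BZR1 to BZR2 was 0.817, 0.594 and 0.572 in samples labelled GSK2-RNAi oswrky53, 0.634, 0.650 and 0.515 in samples labelled GSK2-RNAi, and 0.571 and 0.594 in the wild type, with all groups overlapping. The ratio of DLT to BZR1 was 0.0644, 0.0828 and 0.0606 in samples labelled GSK2-RNAi oswrky53, 0.0331, 0.0518 and 0.0420 in samples labelled GSK2-RNAi, and 0.0869 and 0.0931 in the wild type. Here no group overlapped another. These ratios compare libraries and not the abundance of 1 gene with another, since values were not taken per length, and they were not tested.

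The scaling matters for the small changes because the totals differ. Equal totals moved the median of all genes to 0.40 on the log2 scale in samples labelled GSK2-RNAi relative to the wild type, where it was 0.02 as deposited, and raised the share of upward calls to 8051 of 9515 genes, against 3364 of 6290 as deposited. The median moved to -0.32 in samples labelled GSK2-RNAi oswrky53 relative to samples labelled GSK2-RNAi, and 1145 of 7338 calls were upward, against 2223 of 4172 as deposited. Under equal totals BRI1 kept its direction and its call in both comparisons (-0.91, adjusted p = 0.0201; 1.07, adjusted p = 0.0103), and so did BZR1 (1.14) and BZR2 (1.10) in the first.

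Among other genes of the pathway, 38 were listed, 25 had a name that passed the check against the reference table, 23 of these were in the deposited table and 22 were tested (BU1, at most a few counts, was not). In samples labelled GSK2-RNAi relative to the wild type 5 rose and 5 fell, where 13.3% of all genes rose and 11.6% fell, with a median log2 fold change of -0.38, against 0.02 over all genes tested. Of the 22 genes 6 rose and 2 fell in samples labelled GSK2-RNAi oswrky53 relative to samples labelled GSK2-RNAi, where 8.78% of all genes rose and 7.7% fell, with a median of 0.31, against -0.01 over all genes. Both counts include GSK2 itself, the target named by the construct, which rose in the first comparison and fell in the second. Against the wild type, 0 of 22 passed in samples labelled GSK2-RNAi oswrky53 by limma. At an unadjusted p under 0.05 there were 6 of 22, and the share of all genes at that threshold was not counted.

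Upstream of the BZR genes, the receptor homologue gene BRL1 was near the limit of measurement, at 8.24 ± 5.26 normalized counts in samples labelled GSK2-RNAi oswrky53, 3.8 ± 2.89 in samples labelled GSK2-RNAi and 5.82 ± 1.12 in the wild type (SD, n = 3, 3 and 2). The GSK2 homologue gene GSK4 (Os06g0547900) averaged 575 ± 59.6 in samples labelled GSK2-RNAi oswrky53, 372 ± 16.2 in samples labelled GSK2-RNAi and 889 ± 89.0 in the wild type. On the log2 scale it fell by 1.25 ± 0.14 in samples labelled GSK2-RNAi relative to the wild type (SE, limma adjusted p = 0.00104), while GSK2 rose by 2.94 ± 0.17. By contrast, GSK2 fell by 2.09 and GSK4 rose by 0.62 in samples labelled GSK2-RNAi oswrky53 relative to samples labelled GSK2-RNAi, the GSK4 call being lost with equal totals (0.31, adjusted p = 0.106). The gene of the 14-3-3 protein GF14C, which in rice holds BZR1 in the cytoplasm, had log2 differences of -0.33 and 0.45 in these 2 comparisons and passed in neither (limma adjusted p = 0.135 and 0.0517).

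The third BZR-family gene measured, BZR3 (Os06g0552300), rose as BZR1 and BZR2 did where they passed. It averaged 228 ± 3.54 normalized counts in samples labelled GSK2-RNAi oswrky53, 249 ± 15.3 in samples labelled GSK2-RNAi and 159 ± 14.2 in the wild type. It rose by 0.64 ± 0.14 on the log2 scale in samples labelled GSK2-RNAi relative to the wild type (SE, limma adjusted p = 0.0145), and leaving out wild type replicate 3 ended the call (0.55, adjusted p = 0.0766). Its log2 difference between samples labelled GSK2-RNAi oswrky53 and samples labelled GSK2-RNAi was -0.13 (adjusted p = 0.549).

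Of 8 partner and output genes tested, 1 rose in samples labelled GSK2-RNAi relative to the wild type, a share near the 13.3% of all genes. This was MADS47 (Os03g0186600), a MADS-box gene that restrains brassinosteroid responses in rice, which averaged 700 ± 233 normalized counts in samples labelled GSK2-RNAi and 159 ± 64.7 in the wild type (adjusted p = 0.00859; 0.0544 without wild type replicate 3). Of the same 8 genes, LG1 (Os04g0656500), which is needed to form the leaf joint, was the 1 that passed between the genotypes with GSK2-RNAi in their label, averaging 65.1 ± 8.92 in samples labelled GSK2-RNAi oswrky53 and 24.7 ± 4.0 in samples labelled GSK2-RNAi (adjusted p = 0.0132). Over all genes 8.78% rose there, so this count too is near the background. LG1 was also the leaf joint gene of the tissue check. It averaged 44.8 ± 10.3 in the wild type, between the other genotypes. How much joint tissue the samples held was not tested. LIC and IBH1, which act against BZR1 or leaf bending, and TUD1, a ubiquitin ligase of the pathway, passed in neither comparison. TUD1 missed the threshold narrowly in both, with log2 differences of -0.61 and 0.60 (limma adjusted p = 0.0542 and 0.0519). In the first comparison LIC differed by -0.39 (adjusted p = 0.0614) and IBH1 by -0.37 (adjusted p = 0.132).

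Genes of hormone synthesis are a group that BZR1 is known to repress, and whether it did so in these leaves was not tested. In samples labelled GSK2-RNAi relative to the wild type 4 of 6 fell and 0 rose, where 11.6% of all genes fell, with a median log2 fold change of -1.17. Of 3 breakdown genes of the CYP734A family 2 rose, where 13.3% of all genes rose. Those that fell were DWF4 (-3.37), D2 (-1.96), BRD1 (-1.23) and CYP90A4 (-1.12), of which BRD1 no longer passed when wild type replicate 1 (adjusted p = 0.133) or GSK2-RNAi replicate 3 (0.0653) was left out, or with equal totals (0.0699). DWF4 was at 73.5, 43.9 and 49.6 normalized counts in samples labelled GSK2-RNAi, against 1053 and 311 in the wild type, and its log2 fold change was -2.49 without wild type replicate 1 and -4.25 without wild type replicate 3, called both times. CYP734A4 rose by 4.06 and CYP734A6 by 2.75. CYP734A6 was near the limit of measurement in the wild type, at 45.4, 18.0 and 34.0 in samples labelled GSK2-RNAi, against 6.52 and 1.90 in the wild type. Its log2 fold change was 3.43 without wild type replicate 1, and it no longer passed when wild type replicate 3 (2.06, adjusted p = 0.15), GSK2-RNAi replicate 1 (0.082) or GSK2-RNAi replicate 3 (0.0756) was left out. In samples labelled GSK2-RNAi oswrky53 relative to samples labelled GSK2-RNAi 4 of 6 synthesis genes rose and 0 fell, where 8.78% of all genes rose, DWF4 by 2.82, D2 by 1.82, BRD1 by 1.05 and CYP90A4 by 0.97, and CYP734A4 fell by 2.67, which no longer passed when GSK2-RNAi replicate 2 was left out (adjusted p = 0.053). BRD1 (adjusted p = 0.0386) no longer passed when GSK2-RNAi oswrky53 replicate 2 or 3 or any GSK2-RNAi replicate was left out (0.0743 to 0.114), with equal totals (0.0877) or with eBayes without trend (0.0525). Both comparisons use the same samples labelled GSK2-RNAi, so the falls and the rises of the synthesis genes are not independent. CYP90A3 and CYP90A4 are near-identical, so the authors' counting could share reads between them.

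**Figure D4:**
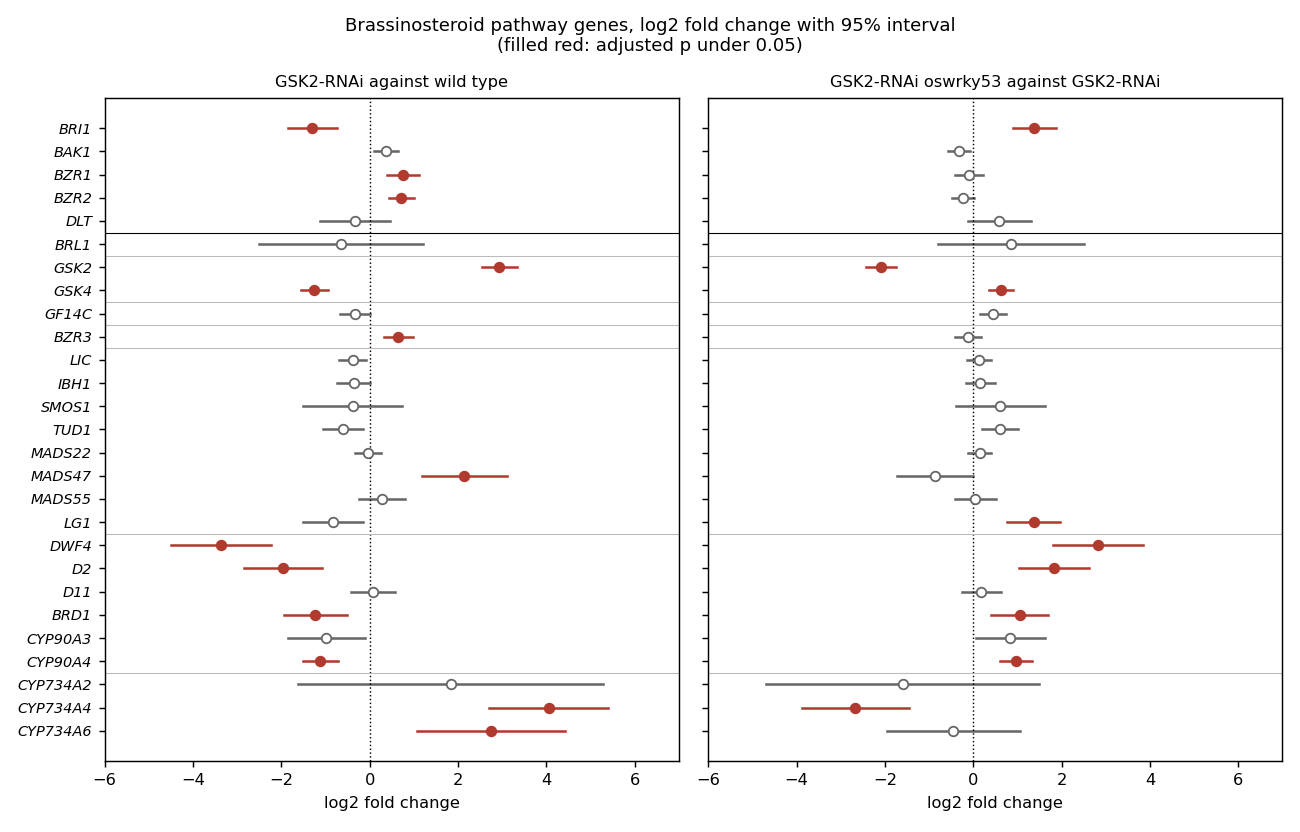
Log2 fold change with 95% interval (horizontal axis) of the 5 genes, above the black line, and of 22 other pathway genes grouped by role, in 2 comparisons. Filled red points passed an adjusted p of 0.05. BRI1 lies below 0 in the left panel and above 0 in the right. The synthesis genes DWF4, D2, BRD1 and CYP90A4 do so too, as do genes of other roles such as GSK4, GF14C, TUD1 and LG1. GSK2, MADS47 and CYP734A4 lie the other way. Samples labelled GSK2-RNAi are part of both panels, which are therefore not independent. BZR1 and BZR2 lie on the same side as BZR3.

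Likeness of pattern was measured as the root mean square difference, over the 8 libraries, between log2 values centred on each gene's own mean, among 115 other genes with a checked name and a mean of at least 50. Nearest to BRI1 were the flowering regulator gene MADS18 (0.27), the chlorophyll synthesis gene PORB (0.27) and the heat shock factor gene HSFA2D (0.27). Between 104 and 122 of all genes tested were nearer to BRI1 than these. PORB is also among the leaf mesophyll genes of the tissue check. Nearest to BZR1 were BZR3 (0.15), the jasmonate receptor gene COI1A (0.20) and the gibberellin receptor gene GID1 (0.20). The same 3 genes were nearest to BZR2, GID1 at 0.12, BZR3 at 0.13 and COI1A at 0.14. Of all genes tested, between 50 and 347 were nearer than these to BZR1 and between 67 and 148 to BZR2. The measure describes these libraries, which share the 3 genotypes, and carries no test.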

How the data were processed

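RNA was measured in 8 flag leaf libraries, grouped by their labels; the titles tied table columns to samples. The authors deposited normalized counts per transcript, a signal that is never negative and not whole, for 38335 transcripts. The submitters' processing notes list the tools DESeq2 1.26.0 and kallisto 0.46.1 and build IRGSP-1.0 without saying what each did. How values were normalized, and with which annotation, is not given in the sources used here. In each library the smallest values differed by about 1 common step (the worth of 1 read), but only 76.2% to 99.0% of these low values lay within 0.1 step of a multiple, so whole reads could not be recovered and count models were not used.

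Transcripts were summed per locus and loci reaching 10 in 2 or more libraries were tested as log2(value + 1), a scale that understates changes of low genes. Contrasts of 3 group means over all 8 libraries were fitted in R 4.3.3 by limma 3.58.1 (lmFit and contrasts.fit, then eBayes with trend), with Benjamini-Hochberg adjustment over all loci. The fit was tested on simulated data. Folds are ratios of group means. Figures and sums used Python 3.11.15.

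The files pair no names with identifiers. Names were written by hand and kept where the symbol stood in the reference table (assembly ASM3414082v1) on the same chromosome and in matching order within 1 Mb, which cannot tell family neighbours apart; 155 of 203 passed. DLT and WRKY53 are exceptions, unchecked. Genes were named by a written rule: the 5 genes, called genes of the pathway list, the genes of the genotype labels and the 3 most alike. Besides these, CAB2R, PCNA, CDKB2-1, TDR, MADS3, MADS6 and MADS15 come from the marker list. They and BRL1, BU1, GF14C, LIC, IBH1, TUD1 and CYP90A3 were chosen for naming after their values were seen. Members and lists were chosen with earlier results of these data known. No nucleotide or protein sequences were used here.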

Additional observations from a re-analysis of the deposited data

How the results depend on the processing

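Alternatives were equal totals, quantile normalization, a pseudocount of 5, no filter, a filter of 50 (which DLT did not pass), eBayes without trend, only the groups compared, a replicate block, the main transcript alone, and leaving out each library. Over these, 242 of 252 member values kept direction and call. Direction could not change under the filters, eBayes without trend, only the groups compared, or without a library of the group not compared. For every member but BRI1 the main transcript is the whole locus. The count also includes values called in neither setting, so it is no measure of how firm the calls are. With equal totals BAK1 passed at 0.75 in GSK2-RNAi against wild type and at -0.64 in GSK2-RNAi oswrky53 against GSK2-RNAi, where BZR2 passed at -0.55; DLT turned to 0.027 in the first. Without 1 library, BZR1 in GSK2-RNAi against wild type ranged from 0.68 to 0.83, and in GSK2-RNAi oswrky53 against wild type BRI1 ranged from -0.092 to 0.30 and BAK1 from -0.038 to 0.12, none called there; BRI1 by its main transcript was -0.039. In that comparison 0 pathway genes were called under any alternative.

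Genes called in GSK2-RNAi against wild type numbered 6290, or 9515 with equal totals, and 3670 to 6911 without 1 library (3670 without GSK2-RNAi replicate 2, 3727 without wild type replicate 1). In GSK2-RNAi oswrky53 against GSK2-RNAi they numbered 4172, or 7338 with equal totals, and 1575 to 4354 without 1 library (2302 without GSK2-RNAi oswrky53 replicate 3; 2374, 1575 and 2136 without GSK2-RNAi replicate 1, 2 and 3). In GSK2-RNAi oswrky53 against wild type they numbered 85, or 47 with only these groups, and 53 to 64 without 1 library. Causes were not tested. With the replicate block the counts were 3894, 2621 and 32, and no call of the 5 genes changed. BRD1 (limma adjusted p = 0.0659 and 0.0884 in the first and second comparison) and CYP734A6 (0.0772 in the first) no longer passed with the block. The numbers were not taken as pairs, since the labels do not say what a shared number means. Deviations from group means correlated from -0.37 to 0.32 between same-numbered libraries and from -0.52 to 0.52 between others. By this centring the 2 wild type libraries mirror each other, so these correlations cannot decide on pairing.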
